A study of Mus musculus with 2 samples.

Results

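The endothelial cells described here are those whose barcodes carried more Ehd3 and Plat than Mgp, Igfbp3 and Sox17 transcripts, a pattern that marks them as glomerular-like. They were taken from single-cell 3' RNA libraries of dissociated kidney from 5-week-old mice, with 1 library of genotype Kif3aΔTub, labelled KO, and 1 of genotype WT, labelled as the control. A barcode was kept with at least 500 UMIs (unique molecular identifiers, each standing for 1 captured transcript), at least 200 genes and under 50% mitochondrial UMIs. It entered the endothelial gate with at least 4 UMIs over Pecam1, Cdh5, Emcn, Kdr, Egfl7 and Tie1, at least 3 of these 6 genes detected, and fewer than 5 UMIs of the C1q genes. The final step asked that Ehd3 and Plat together outnumber Mgp, Igfbp3 and Sox17 together. This gave 367 members among 11607 barcodes that passed, 270 of 7236 in the Kif3aΔTub library and 97 of 4371 in the WT library. Kif3a encodes a subunit of the kinesin-2 motor that builds the primary cilium. The labels used here do not spell out which cells lack Kif3a, name no Cre line, and state that 1 kidney per mouse was dissociated with a cold protease, after which dead cells were removed. Because each genotype is 1 library, no difference below has a replicate check. Every interval is at the 95% level and reflects counting error alone, no p-value is given, and a difference between genotypes cannot be told apart from a difference between these libraries.

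Glomerular endothelial cells line the capillary loops of the kidney's filtration units. They are flat and pierced by open fenestrae, lie on a basement membrane shared with podocytes, and depend on vascular endothelial growth factor (VEGF) made by those podocytes and read by the receptor Kdr. Ehd3, an endocytic recycling protein, and Plat, the tissue plasminogen activator that starts fibrin breakdown, are textbook markers of this endothelium, while Mgp, Igfbp3 and Sox17 mark arterial and other extraglomerular endothelium.

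The members were chosen by their UMIs of the marker genes above, so the levels of those genes are a description only. Ehd3 stood at 2246 CPM (depth-scaled counts, here of UMIs summed over the members) in Kif3aΔTub and 3334 CPM in WT, and Plat at 4091 CPM and 6024 CPM, in the same order of libraries. Both genes were detected in 250 of the 270 Kif3aΔTub members and 93 of the 97 WT members, and all of Ehd3, Plat, Kdr and Emcn in 242 and 91. No UMI of Mgp, Igfbp3 or Sox17 was found in 175 Kif3aΔTub and 42 WT members. Just inside the threshold, 12 Kif3aΔTub and 2 WT members led by 1 or 2 UMIs. Just outside it, 79 Kif3aΔTub and 10 WT gated barcodes were level or behind by up to 2 UMIs, of which 34 and 3 had no UMI of any of the 5 deciding genes.

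Genes that took no part in the rule set these cells apart from the other endothelium in both libraries. The other endothelium, in which Mgp, Igfbp3 and Sox17 outnumbered Ehd3 and Plat, comprised 186 Kif3aΔTub and 54 WT barcodes. Gata5, a zinc-finger transcription factor, stood at 107 CPM in the Kif3aΔTub members and 222 CPM in the WT members. In the other endothelium it had 0 UMIs in Kif3aΔTub, which makes the members at least 40.8-fold higher there, and 2 UMIs in WT, a ratio of 36.1 (11.99 to 377). Sema5a, a semaphorin, was 8.56-fold (5.58 to 14.4) higher in the members than in the other endothelium of Kif3aΔTub and 13.3-fold (7.12 to 31.5) higher in WT. Mapt, the microtubule-binding protein tau, was 16.6-fold (8.69 to 41.3) and 10.7-fold (5.83 to 24.1) higher in the same order. Cyp26b1, which breaks down retinoic acid, was 19.4-fold (8.87 to 66.6) and 9.89-fold (4.57 to 30.2) higher. Tbx3, a T-box transcription factor, was 4.31-fold (3.49 to 5.404) and 3.89-fold (2.77 to 5.65) higher. Pi16, a secreted peptidase-inhibitor-like protein, separated them least of these, at 1.45-fold (1.17 to 1.82) and 1.68-fold (1.31 to 2.16). Sost, also listed as a glomerular capillary gene, had 0 UMIs in the Kif3aΔTub members and 6 UMIs in the WT members.

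The 15 genes with the highest ratio over the other endothelium in both libraries were all at least 7-fold higher in the members, as the plot of these ratios shows. They were picked by this ratio in the same barcodes, so their height is a description only. Igfbp5, which binds insulin-like growth factors, stood at 2521 CPM in the Kif3aΔTub members and 5039 CPM in the WT members, 18.2-fold and 13.6-fold over the other endothelium of the same library. Fgf1, a fibroblast growth factor, was 10.7-fold and 10.6-fold higher. Dlk1, a Notch-family ligand of imprinted expression, had 0 UMIs in the other endothelium of both libraries, so that the members were at least 48.2-fold higher in Kif3aΔTub and at least 19.3-fold higher in WT. Dlk1 came from few cells, 18 of 270 and 5 of 97, whereas Gata5 was detected in 101 and 38. Of the markers of other endothelium, the 10 large artery genes summed to 682 CPM in the Kif3aΔTub members and 793 CPM in the WT members, against 2220 CPM and 2941 CPM in the other endothelium. The 8 peritubular capillary genes summed to 1857 CPM in the members of each library, against 4694 CPM in the other endothelium of Kif3aΔTub and 2063 CPM in that of WT, so in WT they were close in level. As single genes, Fbln5, an elastic fibre protein of large arteries, stood at 3.71 CPM in the Kif3aΔTub members and 2.91 CPM in the WT members, against 482 CPM and 645 CPM in the other endothelium. Plvap, the diaphragm protein of peritubular capillary fenestrae, stood at 35.6 CPM in Kif3aΔTub and 84.5 CPM in WT members, against 804 CPM and 259 CPM in the other endothelium. The name glomerular-like therefore rests on listed glomerular capillary genes higher in the members and the large artery markers, more than on the peritubular ones. These levels are over all members. The members with under 1% of UMIs from markers of other cells are described below. In them the peritubular genes summed to 1794 CPM in Kif3aΔTub and 1348 CPM in WT.

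**Figure D1:**
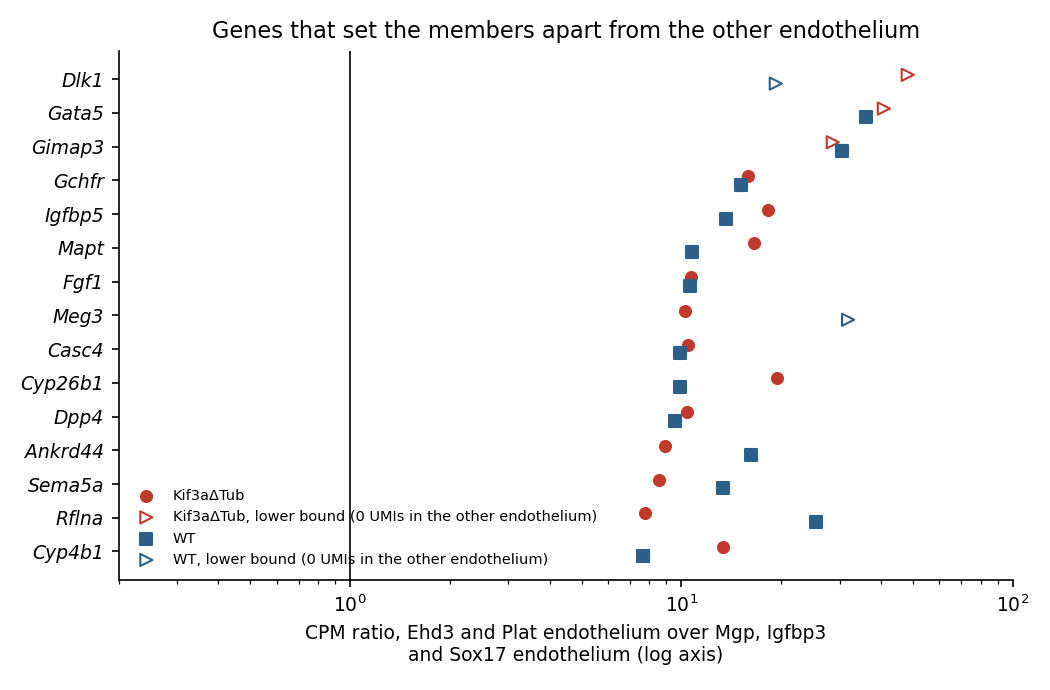
Ratio of each gene's CPM in the Ehd3 and Plat endothelium to its CPM in the other endothelium of the same library, on a log axis, for the 15 genes with the highest ratio in both libraries. Red circles are Kif3aΔTub, blue squares are WT, and open arrowheads are lower bounds set against 3 UMIs where the other endothelium had 0. All points lie above 7-fold, and Gata5 is at least 40.8-fold higher in Kif3aΔTub and 36.1-fold higher in WT.

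Gata5 and Pi16 are shown with the 250 bases before their start from RefSeq (build GRCm38.p6), since both were called lower over all Kif3aΔTub members, as described below. Capitals mark GGAA, the core bound by the ETS factors that govern many endothelial genes, or TTCC, the same core on the other strand. Gata5 lies on the minus strand, with the window at chr2:180334680-180334929. Pi16 lies on the plus strand, with the window at chr17:29318632-29318881.
Gata5: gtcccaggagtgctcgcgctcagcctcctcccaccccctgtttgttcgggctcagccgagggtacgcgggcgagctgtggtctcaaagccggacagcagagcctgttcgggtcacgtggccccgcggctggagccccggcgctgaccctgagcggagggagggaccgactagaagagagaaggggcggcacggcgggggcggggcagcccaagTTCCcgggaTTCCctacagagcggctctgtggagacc
Pi16: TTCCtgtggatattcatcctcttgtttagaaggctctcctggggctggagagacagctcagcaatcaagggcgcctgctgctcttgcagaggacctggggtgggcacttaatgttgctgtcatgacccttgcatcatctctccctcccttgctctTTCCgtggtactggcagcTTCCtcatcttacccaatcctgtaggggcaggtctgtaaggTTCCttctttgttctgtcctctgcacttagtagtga
The core was found 2 times before Gata5 and 4 times before Pi16, in each case as TTCC. Of 32851 promoters of the same length in the RefSeq table, 93.45% hold it, so its presence does not set these genes apart. CACCC, a core bound by KLF factors, or GGGTG on the other strand, was found 1 time before each gene and in 52.01% of all promoters. A match is only a description of the letters.

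The members made up 3.73% (3.31 to 4.19%, exact Clopper-Pearson) of the barcodes that passed in Kif3aΔTub and 2.22% (1.80 to 2.70%) in WT, a ratio of 1.68. Within the endothelial gate the order was the other way round, with 270 of 495 (54.5%, 50.04 to 59.0%) in Kif3aΔTub and 97 of 154 (63.0%, 54.8 to 70.6%) in WT, and these intervals overlap. The share of all barcodes rested on the mitochondrial limit, because the barcodes that passed held a median of 7.55% mitochondrial UMIs in Kif3aΔTub and 26.8% in WT. With a limit of 25% the WT share became 4.69% and the ratio 0.871, so no direction is read from it. The members themselves were low in mitochondrial UMIs, at a median of 3.92% in Kif3aΔTub and 5.64% in WT. They were also shallow: their median was 2950.5 UMIs and 1616.5 genes in Kif3aΔTub and 2361 UMIs and 1395 genes in WT, against 7915 and 7847 UMIs for all barcodes that passed. In all, the members held 1347992 UMIs in Kif3aΔTub and 343108 in WT. The libraries shared 20 cell barcodes, of which 1 belonged to a member and none to a member in both. Kif3a itself had 21 UMIs in the Kif3aΔTub members and 8 in the WT members, or 15.6 and 23.3 CPM, a log2 ratio of -0.64 (-1.81 to 0.80), so a difference was not detectable at this depth.

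A minority of members carried RNA of other cell types, and these barcodes weighed heavily on the sums. Over 119 markers of other cells, 37 Kif3aΔTub members and 10 WT members held at least 1% of their UMIs, up to 8.14% and 2.77%. Although few, the 37 held 592770 of the Kif3aΔTub UMIs and the 10 held 90912 of the WT UMIs, with a median of 11372 and 9425 UMIs per barcode. Their leading markers were those of injured tubule in 26 of the 37 Kif3aΔTub members, with fat cell and macrophage markers leading in 3 each, and those of proximal tubule in 5 of the 10 WT members. Scrublet, which calls doublets by simulation, marked 24 of the 37 and 7 of the 10, and 26 Kif3aΔTub and 7 WT members in all. Ehd3 and Plat were thin in these barcodes, at a median of 19.7 per 10000 UMIs in Kif3aΔTub and 33.8 in WT, against 99.4 and 117 in the members under the limit.

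**Figure D2:**
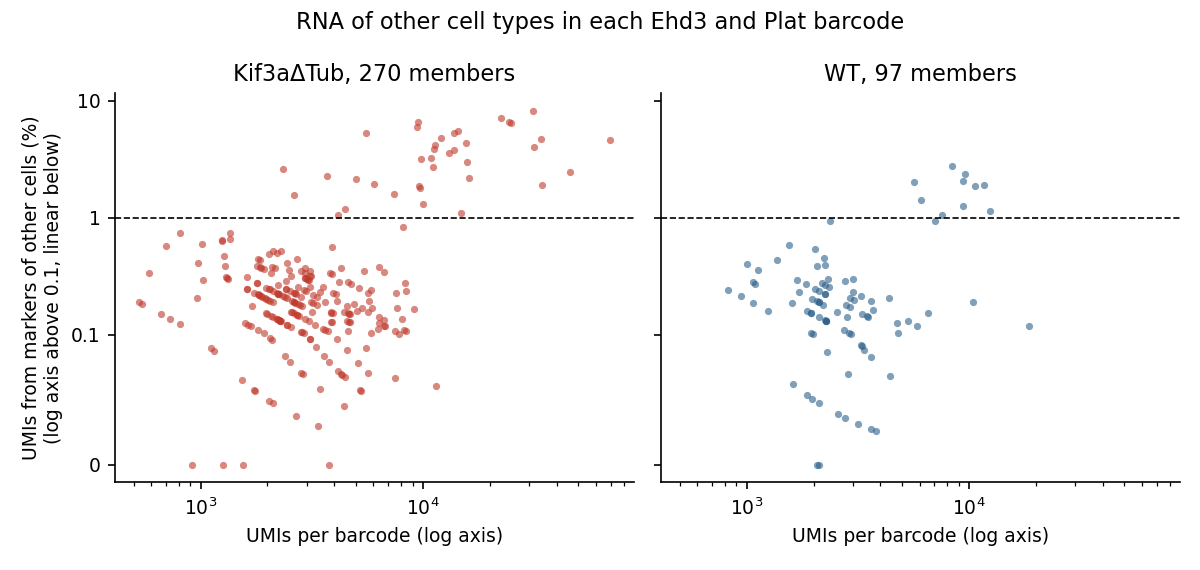
Each point is 1 Ehd3 and Plat barcode, with its UMIs on a log axis and the percent of its UMIs that came from 119 markers of other cell types on an axis that is logarithmic above 0.1 and linear below. The dashed line is at 1%, with 37 of 270 Kif3aΔTub members (left) and 10 of 97 WT members (right) at or above it, most of them at high UMI counts.

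The members under the 1% limit, 233 in Kif3aΔTub with 755222 UMIs and 87 in WT with 252196 UMIs, are used for all gene levels below unless all members are named. The limit was chosen after the data had been seen. In these members the podocyte gene Nphs1, which encodes nephrin, had 0 UMIs in both libraries, and 5 of the 11 podocyte markers, Nphs1 among them, were at 0 in each. The summed podocyte markers stood at 687 CPM in Kif3aΔTub and 1186 CPM in WT, most of it Podxl at 561 and 948 CPM. Of the 3 podocyte markers measured, 0 were called higher and 1, Cdkn1c, lower, with a median log2 ratio of -0.76. The summed mesangial and mural markers stood at 58.3 CPM in Kif3aΔTub and 7.93 CPM in WT. Tubule RNA remained at a low level: the summed proximal tubule markers stood at 263 CPM in Kif3aΔTub and 1542 CPM in WT, and the injured tubule markers at 2027 CPM and 1312 CPM. This level differed between the libraries, as Kap, a proximal tubule protein, had 2 UMIs in the Kif3aΔTub members and 147 in the WT members. The part of tubule RNA in the results below was not tested, beyond the levels in proximal tubule-like barcodes given beside them.

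Gene levels in the members were compared between the libraries by a rule of size, calling a gene higher or lower when its level differed at least 2-fold and its counting interval left out equality. Over all members, 489 of 8496 genes with at least 20 UMIs (5.76%) were higher in Kif3aΔTub and 277 (3.26%) were lower. In the members under the limit, 202 of 6515 genes (3.1%) were higher and 148 (2.27%) were lower, and 111 of the higher and 104 of the lower were called in both sets. The median gene stood at a log2 ratio of -0.01 over all members and 0.0026 under the limit, with quartiles of -0.32 and 0.33 under it. Median-of-ratios scaling moved all log2 ratios by 0.114 and gave 607 higher and 210 lower genes over all members, so that 74.3% of calls were higher, against 63.8% in the main scaling.

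Over all members, many of the most extreme ratios rested on few barcodes. At least 50% of the UMIs came from 3 or fewer barcodes in 13 of the 15 highest genes and in 6 of the 15 lowest. Cfd, or adipsin, had 3488 UMIs in 13 Kif3aΔTub members and 0 in WT, and under the limit 7 and 0. Adipoq, the fat-cell hormone adiponectin, had 194 UMIs in 3 Kif3aΔTub members and 0 in WT, and under the limit 0 in both. Among the 15 lowest genes, Glycam1 and Ccl21a, an L-selectin ligand and a lymphoid chemokine, had 0 UMIs in Kif3aΔTub and 487 and 123 in 1 WT member, and 0 in both libraries under the limit. These 4 genes therefore describe few barcodes. The genes followed next were required to have UMIs in at least 10% of the members under the limit in the library where they were higher, a condition added after the data had been seen.

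Esm1 and Clca3a1 were the genes that differed most between the libraries in this way. Esm1 encodes endocan, a secreted proteoglycan of sprouting endothelium that is induced by VEGF. It had 203 UMIs in 69 of 233 Kif3aΔTub members, or 269 CPM (233 to 308), and 1 UMI in 1 of 87 WT members, or 3.97 CPM (0.10 to 22.1), a log2 ratio of 5.50 (3.59 to 11.39). Over all members it had 233 UMIs and 1 UMI. Clca3a1, a member of the CLCA family of secreted proteins, had 104 UMIs in 63 Kif3aΔTub members, or 138 CPM, and 0 UMIs in WT, and was at least 11.6-fold higher. Over all members it had 115 UMIs in Kif3aΔTub and 1 UMI in WT, a log2 ratio of 4.29 (2.36 to 10.19). Its close relative Clca3a2 had 0 UMIs under the limit in both libraries, though reads that match both copies may be missing from either count.

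Each barcode was thinned to 1000 UMIs, which left out 11 Kif3aΔTub and 3 WT members as too shallow. Esm1 was then found in 43 of 222 Kif3aΔTub members (19.4%, 14.4 to 25.2%) and in 0 of 84 WT members. The count of 0 allows a share of up to 3.57% of members with an Esm1 UMI at that depth. This limit was set at 3 of 84 members, not by Clopper-Pearson. Unthinned, the shares were 29.6% and 1.15%. Clca3a1 was found in 9.46% and 0% of the thinned members, unthinned in 27.0% and 0%. Proximal tubule-like barcodes were those with at least 3 UMIs of Slc34a1 and Lrp2 together and no UMI of the 6 endothelial genes. After thinning, each gene was found in 0 of 904 of these barcodes in Kif3aΔTub and 0 of 2607 in WT. Their median depth was 9889 and 9599 UMIs, against 2725 and 2273 UMIs for the members. Barcodes with free endothelial RNA were left out by that choice, so these counts of 0 give no level of free RNA.

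The 250 bases before each of these genes are printed, again from RefSeq for GRCm38.p6 and with GGAA or TTCC in capitals, because these genes had the highest ratios among the genes detected in at least 10% of members. Esm1 spans chr13:113209659-113218098 on the plus strand, with the window at chr13:113209409-113209658. Clca3a1 spans chr3:144729677-144760977 on the minus strand, with the window at chr3:144760978-144761227.
Esm1: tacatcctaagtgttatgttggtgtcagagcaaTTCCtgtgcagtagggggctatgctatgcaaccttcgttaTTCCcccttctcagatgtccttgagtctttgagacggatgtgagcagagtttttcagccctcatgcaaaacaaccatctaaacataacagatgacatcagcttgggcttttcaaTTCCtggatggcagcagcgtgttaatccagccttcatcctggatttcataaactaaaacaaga
Clca3a1: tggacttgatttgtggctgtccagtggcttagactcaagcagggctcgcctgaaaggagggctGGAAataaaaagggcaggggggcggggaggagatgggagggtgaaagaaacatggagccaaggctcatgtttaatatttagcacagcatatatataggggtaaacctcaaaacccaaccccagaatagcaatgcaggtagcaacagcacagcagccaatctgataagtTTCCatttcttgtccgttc
The ETS core was found 3 times before Esm1, each as TTCC, and 2 times before Clca3a1, 1 time on each strand. CACCC or GGGTG was found 0 times before Esm1 and 1 time before Clca3a1.

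Within the Kif3aΔTub library, the 69 members with an Esm1 UMI and the 164 without one had like depths, at medians of 2810 and 2718.5 UMIs. As a description of cells split by a measured gene, Ehd3 stood at 3523 CPM in members with Esm1 and 3505 CPM in those without, and Kdr at 2529 and 2350 CPM. Plat stood at 7519 CPM (7166 to 7885) with Esm1 and 6055 CPM (5847 to 6268) without, and Fabp4 at 4443 CPM (4172 to 4726) and 2769 CPM (2629 to 2915). Gpihbp1 stood at 827 and 769 CPM. Apln, the peptide apelin of tip cells, stood at 70.7 CPM (40.4 to 115) with Esm1 and 20.8 CPM (10.4 to 37.2) without. Clca3a1 stood at 199 CPM (145 to 266) with Esm1 and 112 CPM (84.9 to 144) without. Plvap stood at 164 CPM with Esm1, from 8 cells, and 18.9 CPM without, from 3 cells. Pi16 ran the other way, at 181 CPM (130 to 246) with Esm1 and 289 CPM (245 to 339) without.

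The other genes named as higher in the Kif3aΔTub members had smaller ratios than Esm1 and Clca3a1. Fabp4, a fatty acid carrier of capillary endothelium, had 3271 CPM (3143 to 3402) in 200 Kif3aΔTub members and 1229 CPM (1096 to 1374) in 58 WT members, a log2 ratio of 1.41 (1.24 to 1.59). After thinning it was found in 79.3% and 53.6% of the members, against 0.22% and 0.12% of proximal tubule-like barcodes. Those barcodes were chosen to lack the 6 endothelial genes. Over all members Fabp4 stood at 4883 and 1108 CPM, but 27.6% of its Kif3aΔTub UMIs then came from 1 barcode. Gda, the enzyme guanine deaminase, had 299 CPM in 101 Kif3aΔTub members and 39.7 CPM in 10 WT members, a log2 ratio of 2.85 (2.01 to 4.00). Over all members Gda stood at 195 and 61.2 CPM, a log2 ratio of 1.64 (1.03 to 2.39). There 42.9% of its WT UMIs came from 1 barcode. Ctgf, a matricellular protein, stood at 189 CPM in Kif3aΔTub and 19.8 CPM in WT but came from 30 and 2 cells. Serpine2, an inhibitor of thrombin and urokinase, stood at 102 and 15.9 CPM, a log2 ratio of 2.52 (1.27 to 4.596). Slc3a2, the heavy chain of amino acid transporters, stood at 376 and 119 CPM, and Adamts5, a protease that cuts aggrecan and versican, at 302 and 119 CPM. The log2 ratio of Slc3a2 was 1.64 under the limit and 1.12 (0.69 to 1.61) over all members. The rest of the 15 were Slc45a4, Chst2, Cd93, Dcbld1, Tbx3os1, Pnpla2 and Vim, with log2 ratios between 1.33 for Vim and 2.07 for Slc45a4. Vim came from 24 of 233 Kif3aΔTub and 12 of 87 WT members, so its share of cells was not the higher one in Kif3aΔTub. Of its Kif3aΔTub UMIs under the limit, 39.6% came from 1 barcode. Tbx3os1 lies antisense beside Tbx3, and the strand setting of the counting is not given in the sources used here.

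The genes named as lower in the Kif3aΔTub members stood in WT between 103 CPM for Stmn2 and 369 CPM for Ccrl2. Naming required at least 100 CPM there. Ccrl2, an atypical receptor that binds chemerin, had 143 CPM (117 to 173) in 80 Kif3aΔTub members and 369 CPM (298 to 452) in 49 WT members, a log2 ratio of -1.37 (-1.78 to -0.95). Cd59a, which blocks the complement membrane attack complex, had 95.3 CPM in 56 Kif3aΔTub members and 285 CPM in 42 WT members, a log2 ratio of -1.58 (-2.07 to -1.09). P2ry1, a receptor for ADP, had 22.5 and 127 CPM, a log2 ratio of -2.48 (-3.44 to -1.60). Cdkn1c, a cell cycle inhibitor also made by podocytes, had 58.3 and 198 CPM, a log2 ratio of -1.76 (-2.39 to -1.15). Beside Cdkn1c, the summed podocyte markers stood at 687 CPM in Kif3aΔTub and 1186 CPM in WT, and their part was not tested. Vegfa, the VEGF ligand itself, had 47.7 and 147 CPM, a log2 ratio of -1.62 (-2.33 to -0.92). Vegfa was also lower over all barcodes that passed, at 38.1 and 82.4 CPM, and in the other endothelium, at 29.7 and 64.2 CPM. The part of other cells' RNA in its UMIs was not tested. Klf10, a zinc-finger factor induced by TGF-beta, had 51.6 and 155 CPM. The remaining lower genes were Krt80, Ltc4s, Gadd45b, Stmn2, Eln, Tgfb1i1, Ckb, Ceacam1 and Trim8, with log2 ratios between -2.66 for Krt80 and -1.43 for Trim8. Over all members Krt80 stood at -1.58 (-2.28 to -0.85), Ltc4s at -1.23 (-1.76 to -0.67) and Gadd45b at -1.55 (-2.21 to -0.87). Under the limit these 3 were lower still, with Ltc4s at -2.33 and Gadd45b at -2.26. Stmn2 rested on 4 Kif3aΔTub and 13 WT members. Clec14a, an endothelial C-type lectin that was among the 15 lowest genes over all members, stood at 332 CPM in 123 Kif3aΔTub members and 714 CPM in 67 WT members, a log2 ratio of -1.10 (-1.38 to -0.82). After thinning Clec14a was found in 26.1% (20.5 to 32.4%) and 45.2% (34.3 to 56.5%) of members, and Ccrl2 in 11.3% and 33.3%.

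**Figure D3:**
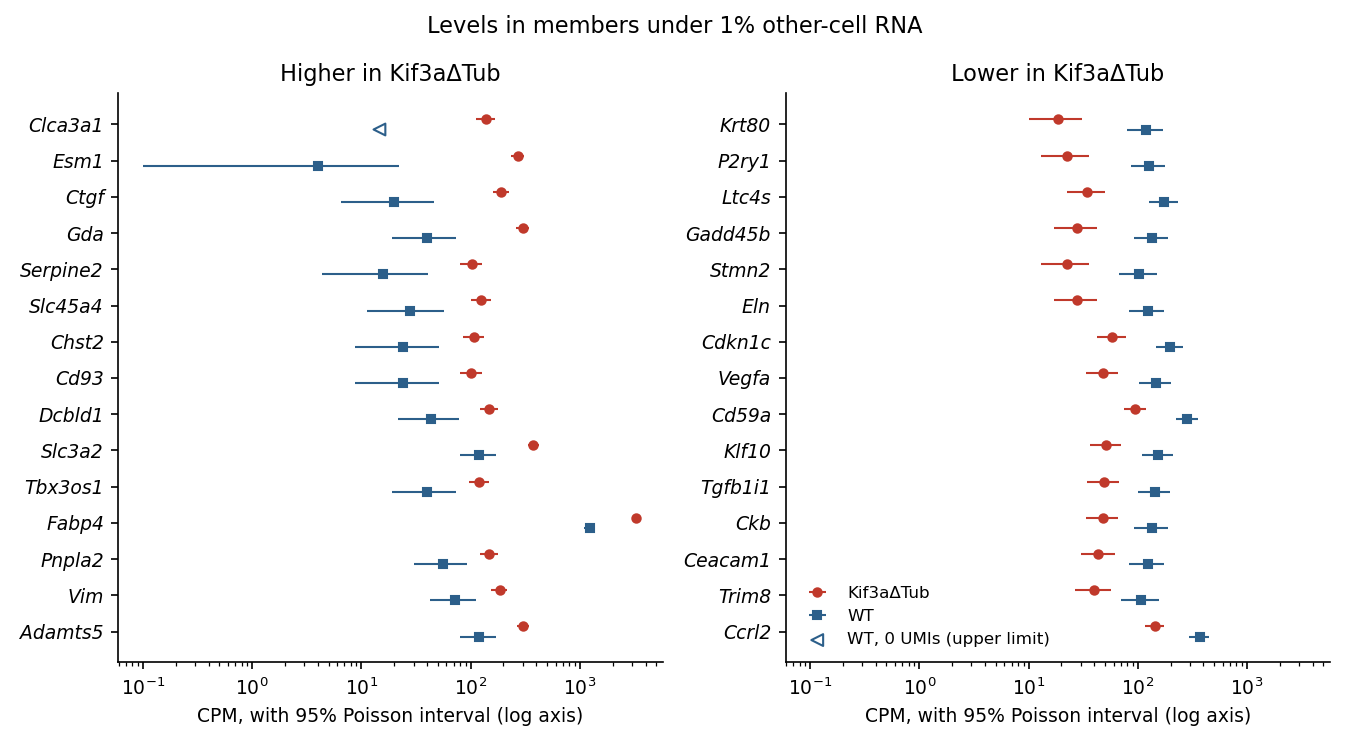
Levels in CPM, on a log axis, of the 15 genes most higher (left) and most lower (right) in Kif3aΔTub among those detected in at least 10% of the members under 1% other-cell RNA. Red circles are Kif3aΔTub, blue squares are WT, bars are 95% Poisson intervals for counting error, and the open arrowhead is the upper limit where WT had 0 UMIs. Esm1 sits at 269 CPM in Kif3aΔTub and 3.97 CPM in WT, and Ccrl2 at 143 CPM in Kif3aΔTub and 369 CPM in WT.

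The genes that define the glomerular capillary leaned lower in Kif3aΔTub. Of 11 measured, 0 were called higher and 2 lower under the limit, with a median log2 ratio of -0.69, against 3.1% of all genes higher, 2.27% lower and a median of 0.0026. The counts under the limit in the lists below are to be read against the same shares. Those over all members are to be read against 5.76% of all genes higher and 3.26% lower. Over all members 0 of the 11 glomerular capillary genes were higher and 4 lower, with a median of -0.77. Pi16 stood at 257 CPM (222 to 296) in 110 of 233 Kif3aΔTub members and 563 CPM (474 to 664) in 65 of 87 WT members, a log2 ratio of -1.13 (-1.45 to -0.81). After thinning it was found in 19.4% (14.4 to 25.2%) and 51.2% (40.0 to 62.3%) of members. Mapt stood at 168 and 341 CPM, a log2 ratio of -1.02 (-1.43 to -0.61). Sema5a stood at 233 and 397 CPM, a log2 ratio of -0.77 (-1.13 to -0.40), Smad6, an inhibitor of BMP signalling, at -0.76 (-1.19 to -0.31), and Gata5 at 163 and 262 CPM, or -0.69 (-1.13 to -0.23), none of which reached 2-fold. Gata5 was detected in 87 of 233 Kif3aΔTub and 32 of 87 WT members, and after thinning in 13.5% (9.31 to 18.7%) and 20.2% (12.3 to 30.4%), so its shares of cells overlap within counting error. Tbx3 at 0.17, Hecw2 at -0.03, Dkk2 at 0.32 and Lpl at -0.19 had log2 ratios whose intervals held equality.

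In the VEGF and angiopoietin list, of 14 measured, 3 were higher and 1 lower under the limit, with a median of 0.16. Over all members 2 were higher and 1 lower, with a median of -0.20. The response genes Esm1 and Apln were higher, Apln with 27 UMIs from 13 Kif3aΔTub members and 0 in WT, at least 3.01-fold. The chemokine receptor Cxcr4 was the other one called higher, with 29 UMIs in Kif3aΔTub and 3 in WT, a log2 ratio of 1.49 (0.00086 to 4.05) that barely leaves out equality. Flt4, the VEGF-C receptor, stood at 130 and 63.4 CPM, a log2 ratio of 0.9953 (0.26 to 1.89) that did not reach the call. The ligand Vegfa was the lower one. Flt1, a decoy receptor for VEGF, stood at 1131 CPM in Kif3aΔTub and 1094 CPM in WT, a log2 ratio of 0.05 (-0.15 to 0.25). The co-receptor Nrp1 at -0.26 (-0.40 to -0.12) and the angiopoietin receptor Tek at -0.45 (-0.75 to -0.13) lay below equality without reaching 2-fold. In the Notch list 0 of 9 were called in either direction, and its median was 0.14 under the limit and -0.01 over all members. Dll4, the tip-cell Notch ligand, stood at 204 CPM in Kif3aΔTub and 123 CPM in WT, a log2 ratio of 0.71 (0.17 to 1.34).

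Lists of vessel structure showed scattered differences. Over all members 0 of 19 junction, fenestra and caveola genes were higher and 3 lower, with a median of -0.07. Under the limit 2 of 18 were higher and 0 lower, with a median of 0.22. The higher ones had few UMIs: Plvap had 47 in 11 Kif3aΔTub members and 2 in 2 WT members, a log2 ratio of 2.67 (1.04 to 6.06), and Jam2 had 31 and 3, or 1.59 (0.11 to 4.14). Over all members Plvap had 48 UMIs in Kif3aΔTub and 29 in WT and was called lower, at -1.26 (-1.94 to -0.53), so its direction turned with the members left out. Podxl, a charged glycocalyx protein, stood at 561 CPM in Kif3aΔTub and 948 CPM in WT, a log2 ratio of -0.76 (-0.99 to -0.52), and the adhesion molecule Icam2 at 372 and 607 CPM, or -0.71 (-0.99 to -0.41). Of 20 basement membrane and matrix genes 0 were called in either direction, with a median of 0.36 under the limit and 0.18 over all members. The collagen IV chains Col4a1 and Col4a2 were at their upper end. Col4a1 stood at 964 and 555 CPM, a log2 ratio of 0.79 (0.53 to 1.07), and Col4a2 at 738 and 389 CPM, or 0.92 (0.61 to 1.25).

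In lipid uptake, 3 of 8 genes were higher and 1 was lower, with a median of 0.69 under the limit and 0.21 over all members. Besides Fabp4, Gpihbp1, which holds lipoprotein lipase on the capillary wall, stood at 787 CPM in 156 Kif3aΔTub members and 313 CPM in 38 WT members, a log2 ratio of 1.32 (0.99 to 1.69). After thinning it was found in 44.1% (37.5 to 50.9%) and 25% (16.2 to 35.6%) of members. Scarb1, the receptor for high-density lipoprotein, stood at 117 and 55.5 CPM, a log2 ratio of 1.03 (0.25 to 2.00). Cd36, a fatty acid translocase, was the lower one, at 54.3 and 119 CPM, a log2 ratio of -1.14 (-1.85 to -0.40).

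Antigen presentation had 2 of 14 genes higher and 2 lower over all members, with a median of -0.74, against 5.76% and 3.26% of all genes. Under the limit it leaned lower, with 0 of 11 genes higher and 3 lower and a median of -0.69. Of all genes under the limit, 3.1% were higher and 2.27% lower, with a median of 0.0026. H2-K1, a class I heavy chain, stood at 551 CPM in Kif3aΔTub and 1142 CPM in WT, a log2 ratio of -1.05 (-1.27 to -0.83). Tapbp, which loads peptides, at -1.04 (-1.58 to -0.49) and the immunoproteasome subunit Psmb9 at -1.08 (-1.80 to -0.32) were the others called. H2-D1 at -0.69 (-0.88 to -0.48) and the light chain B2m at -0.45 (-0.68 to -0.22) had the same direction without reaching 2-fold. H2-K1 and H2-D1 are near-identical in part, so reads could be split between them. In the interferon list 1 of 22 was higher under the limit, the GTPase Iigp1, and 0 were lower, with a median of -0.07. Over all members 0 of 25 were higher and 2 lower, with a median of -0.32.

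Over all members 0 of 10 shear-responsive and KLF factors were higher and 4 lower, with a median of -0.43. Under the limit 0 of 10 were higher and 2 lower, with a median of -0.22. Klf10 and Sox7, a vascular SOX factor, were the lower ones. Klf2, the main flow-induced factor, stood at 2532 CPM in Kif3aΔTub and 2732 CPM in WT, a log2 ratio of -0.11 (-0.24 to 0.02), and Klf4 at 201 and 393 CPM, or -0.97 (-1.34 to -0.58). Among immediate early and stress genes 3 of 23 were higher and 2 lower. The higher ones were Junb at 217 and 91.2 CPM, a log2 ratio of 1.23 (0.62 to 1.95), Socs3, a feedback inhibitor of cytokine signalling, at 240 and 95.2 CPM, or 1.31 (0.71 to 2.01), and Cebpd at 1.09 (0.46 to 1.84). Gadd45b and Cebpb were the lower ones, but Cebpb stood at -1.64 (-2.51 to -0.77) under the limit and 0.51 (-0.09 to 1.21) over all members. The list's median was 0.11 under the limit and 0.42 over all members, of which 5 of 26 were higher.

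The remaining vascular lists held few called genes. In coagulation and fibrinolysis Serpine2 was higher and Cd59a lower of 10, and Thbd, thrombomodulin, stood at 79.4 CPM in Kif3aΔTub and 155 CPM in WT, a log2 ratio of -0.97 (-1.57 to -0.34). The median of that list was 0.06 under the limit and 0.02 over all members. Among 12 vasoactive genes 1 was lower, the natriuretic peptide receptor Npr1, and Ramp2, the adrenomedullin co-receptor, stood at 2427 and 3545 CPM, a log2 ratio of -0.55 (-0.66 to -0.43), with medians of -0.28 and -0.45 in the same order of member sets. Among 17 TGF-beta and BMP genes 1 was lower, Ltbp4, while Id1, a direct BMP target, stood at 3261 and 2213 CPM, a log2 ratio of 0.56 (0.43 to 0.69), and the list's median was 0.09 under the limit and -0.18 over all members. Among 8 leukocyte adhesion and chemokine genes Lrg1 and Il33 were higher, but Lrg1 stood at 1.12 (0.47 to 1.91) under the limit and -0.51 (-0.85 to -0.14) over all members. That list's median was 0.34 under the limit and 0.20 over all members. Under the limit, 0 genes were called among 17 endothelial transcription factors, 11 cilium and kinesin-2 genes, 13 glycolysis genes, 26 nuclear oxidative phosphorylation genes and 4 cell cycle genes, whose medians under the limit were -0.09, -0.40, 0.0026, 0.06 and 0.37. Over all members these medians were -0.31, 0.03, 0.38, 0.30 and 0.24.

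**Figure D4:**
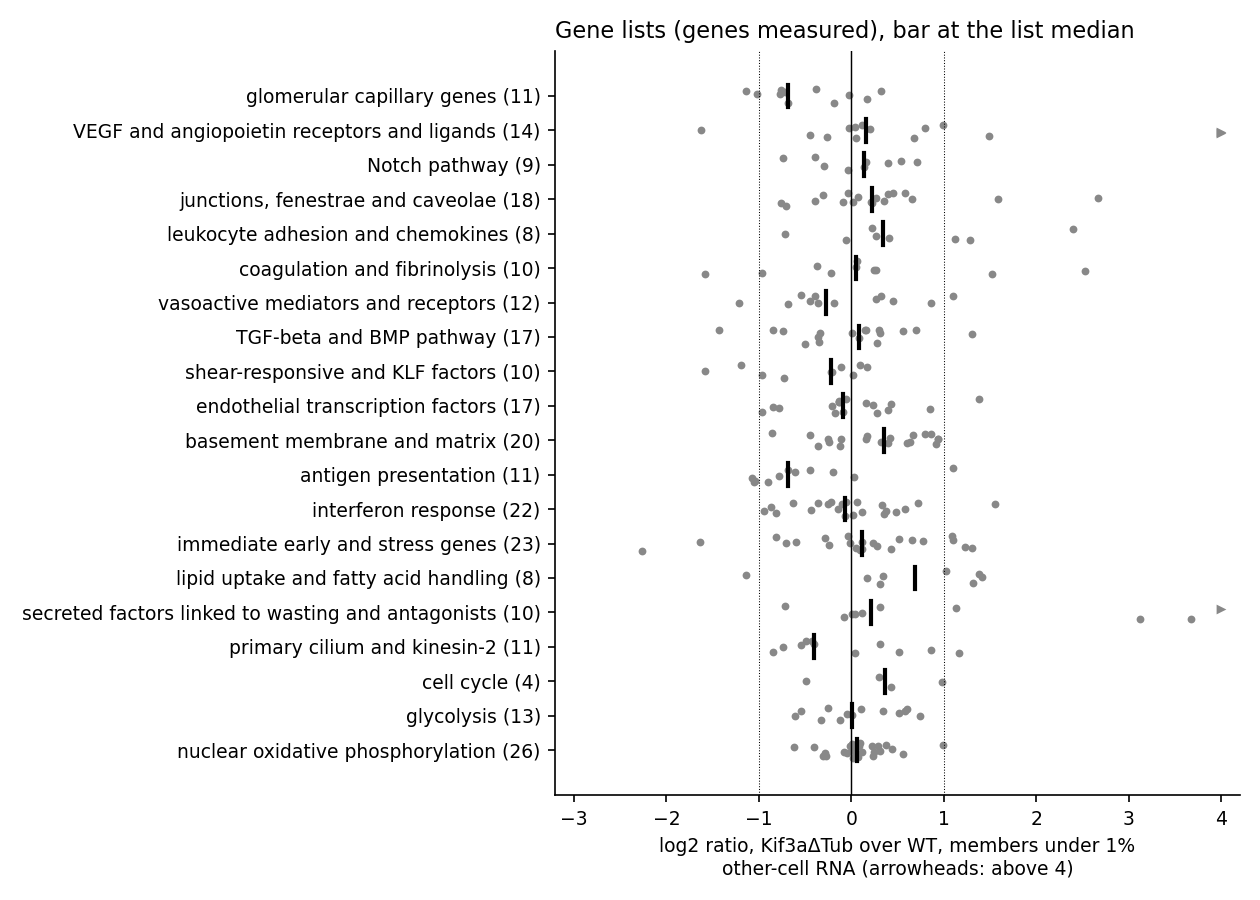
Each point is 1 gene's log2 ratio of Kif3aΔTub over WT in the members under 1% other-cell RNA, by list, with the number of genes measured in brackets, a bar at the list median, dotted lines at 2-fold and arrowheads for values above 4. The medians of the glomerular capillary and antigen presentation lists both lie at -0.69, and that of lipid uptake at 0.69.

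Of 10 measured secreted factors linked to muscle wasting and their antagonists, the question named in the series title, 4 were higher in the members and 0 lower, with a median of 0.21 under the limit and 0.03 over all members. Spp1, osteopontin, had 363 UMIs in 169 Kif3aΔTub members and 9 UMIs in 9 WT members, and Lcn2, lipocalin 2, had 66 UMIs in 56 Kif3aΔTub members and 0 in WT. Both are markers of injured tubule. After thinning, Spp1 was found in 37.4% of the Kif3aΔTub members and 98.0% of the Kif3aΔTub proximal tubule-like barcodes, and Lcn2 in 7.66% and 10.1%. Both shares in the members lay below those of the tubule, and the part of tubule RNA in these UMIs was not tested. Ctgf and Igfbp7 were the others called higher. Igfbp5, the most abundant of the list in the members, stood at 3866 CPM in Kif3aΔTub and 6336 CPM in WT, a log2 ratio of -0.71 (-0.80 to -0.62).

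The same contrast in the other endothelium of these libraries is given for comparison. In that endothelium, with no limit on other-cell RNA, 490 of 8111 genes (6.04%) were higher and 333 (4.11%) lower. Esm1 stood there at 148 CPM in Kif3aΔTub and 32.1 CPM in WT, a log2 ratio of 2.16 (1.39 to 3.15), whose interval lies below the 3.59 to 11.39 of the members. The WT level there rested on 13 UMIs in 6 barcodes, 46.2% of them in 1 barcode, and that of the WT members on 1 UMI. Over all members the Kif3aΔTub level of Esm1 was 173 CPM. Gpihbp1 stood at 694 and 153 CPM, a log2 ratio of 2.17 (1.80 to 2.58), and H2-K1 at 694 and 1129 CPM, or -0.70 (-0.87 to -0.53), the same directions as in the members. Genes of the glomerular capillary list had negative ratios there too: Pi16 stood at 114 CPM in Kif3aΔTub and 279 CPM in WT, a log2 ratio of -1.29 (-1.66 to -0.91), and Smad6 at 38.4 and 74.1 CPM, or -0.96 (-1.65 to -0.23). Mapt, with 8 and 10 UMIs, had a log2 ratio of -1.81 (-3.37 to -0.33), and Sema5a one of -0.32 (-1.47 to 1.03). With the 1% limit applied to that endothelium too, Mapt had 2 and 1 UMIs, or -0.62 (-4.62 to 5.53), which held equality. Sema5a then had 2 and 6 UMIs, or -2.73 (-6.28 to -0.46). Clca3a1 had 18 UMIs in Kif3aΔTub and 0 in WT there, at least 2.12-fold. Cd93, an endothelial lectin-like receptor, stood at 550 CPM in Kif3aΔTub and 788 CPM in WT, a log2 ratio of -0.52 (-0.72 to -0.32). In the members under the limit it stood at 101 and 23.8 CPM, or 1.97 (0.89 to 3.57). That WT level rested on 6 UMIs in 4 members, and over all members Cd93 was not called. Eln, elastin, stood in the other endothelium at 988 and 610 CPM, a log2 ratio of 0.69 (0.49 to 0.90). In the members under the limit it stood at 27.8 and 123 CPM, or -2.13 (-3.02 to -1.30). These differences between the endothelial sets were not tested, since each genotype is 1 library.

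**Figure D5:**
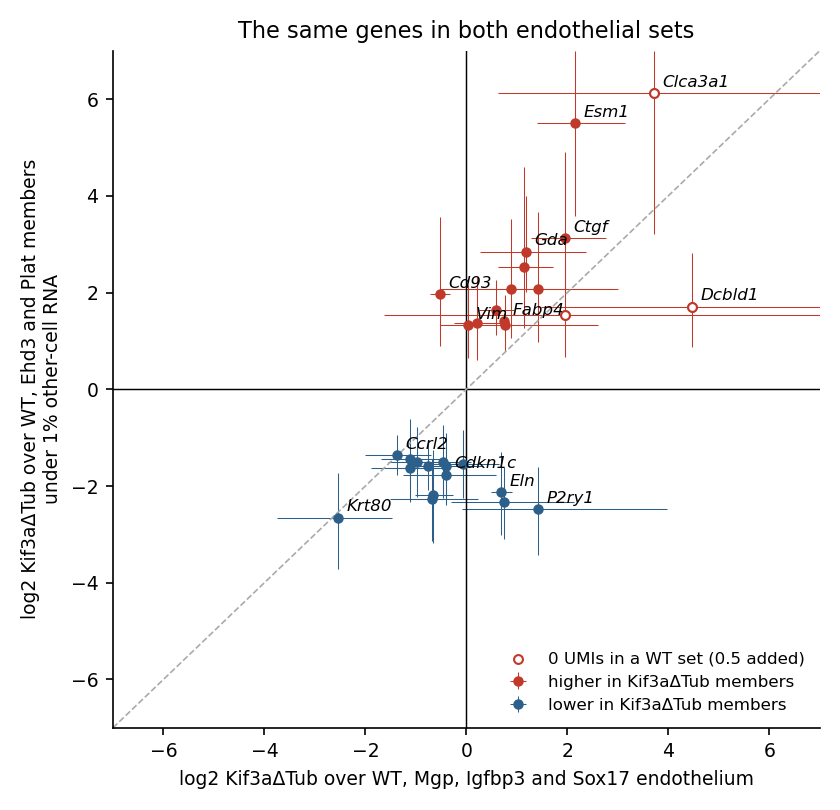
For the 30 genes of the plot of levels, the log2 ratio of Kif3aΔTub over WT in the Mgp, Igfbp3 and Sox17 endothelium (horizontal) against the same ratio in the Ehd3 and Plat members under 1% other-cell RNA (vertical), with 95% counting intervals cut off at the axes and open circles where a WT set had 0 UMIs. The dashed line marks equal ratios, Esm1 lies at 2.16 and 5.50, Cd93 at -0.52 and 1.97, and Eln at 0.69 and -2.13.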

How the data were processed

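The analysis used the deposited matrices of UMI counts, 1 per library, as made by the authors, with 31053 genes in each. The version written in the matrix, per the file headers, is Cell Ranger 3.1.0; the tools listed in the submitters' processing notes are Cell Ranger 3.0.2 and Seurat 3.1.1, with build mm10. Members were chosen by the marker counts given above, so those genes were left out of all counts of called genes. Counts were summed over members and divided by the member total (CPM). Log2 ratios have 0.5 UMIs added to each sum and exact 95% intervals for the ratio of Poisson counts given their total. Intervals of sums are exact Poisson ones, those of shares are by Clopper-Pearson. Where a library had 0 UMIs, the bound was set against 3 counts over the group. PCR copies are removed by UMIs, and cells are not replicates.

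Genes named were the 15 highest and 15 lowest log2 ratios with at least 20 UMIs and 100 CPM in the higher library, an interval leaving out equality, and a level at least that of all barcodes that passed. Mitochondrial, ribosomal, haemoglobin and predicted genes were left out. In lists, members with at least 100 UMIs and the 4 largest ratios each way could be named. The members and the 20 lists were chosen with earlier results of these data known, and the 1% limit and the 10% spread condition after seeing the data. Doublets were called with Scrublet in scanpy 1.11.5 and kept in the main sums. edgeR 4.0.16 supplied TMM factors as an alternative. Gene positions are from GENCODE for GRCm38. The scripts were tested on simulated data.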

Additional observations from a re-analysis of the deposited data

Results flagged for a closer look

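Cd93 and Eln were flagged because their log2 ratios of Kif3aΔTub over WT had opposite signs in the endothelial sets of the same libraries. Over all members, Cd93 was at 0.87 (0.04 to 1.92) in the Ehd3 and Plat endothelium and at -0.52 in the Mgp, Igfbp3 and Sox17 endothelium. Eln was at -2.27 and 0.69 in the same order. Cd93 was not called in the members by the 2-fold rule, with 12 UMIs in 6 WT members. They were not the only named genes with opposite signs over all members. Ifi27l2a was at 5.11 and -0.95, and Slc12a3 at -4.84 and 2.10, in the same order of endothelial sets. In the members, 61.2% of the Kif3aΔTub UMIs of Ifi27l2a and 53.7% of the WT UMIs of Slc12a3 came from 1 barcode. The difference between the sets was not tested for any of these genes.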

How the results depend on the processing

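No paired analysis was possible because each genotype has 1 library. Shares of barcodes that passed are given for Kif3aΔTub first. With a mitochondrial limit of 25% the WT share was 4.69% and the ratio of shares 0.871. Without the 20% of members with most tubule RNA the shares were 3.01% and 1.77%, with 220 genes higher, 155 lower and 14 list genes lower. Without barcodes at 1% or more other-cell RNA the Kif3aΔTub share was 3.22%, with 202 higher, 148 lower and 14 list genes lower. Leaving out the largest remaining barcode of each library as well gave 3.21%, 194 higher, 143 lower and 13 list genes lower, and turned the median log2 ratio of endothelial transcription factors to 0.024 and the median log2 ratio of interferon response to 0.010. List medians within 0.25 of 0 over all members, a width set after the data were seen, were read as no direction, and those of VEGF, TGF-beta and BMP, junction, Notch and cilium genes changed sign under the 1% limit, as given above. Without a UMI minimum per gene 424 were lower. With at least 100 UMIs 147 were higher and 72 lower, with 12 list genes higher and 14 lower. Thinned to 1000 UMIs, the Kif3aΔTub share was 3.28%. The main counts were 489 higher and 277 lower, with 26 and 23 list genes. The causes were not tested. Over the alternatives, 576 values of Kif3a and the genes named over all members or under the limit stayed within their interval over all members. Another 39 lay outside it. Genes under 20 UMIs in an alternative gave no value. Having 1 library per genotype limits every comparison.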
